A study of Mus musculus with 9 samples.

Results

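Sertoli cell marker and hormone genes were followed in mouse testis treated with inhibitors of KIFC1, a kinesin motor that bundles microtubules of the spindle and works in sperm head formation. The set comprised 10 genes, Sox9, Wt1, Gata4, Amh, Fshr, Inha, Kitl, Gdnf, Cst12 and Rhox5, chosen by name as known Sertoli cell genes and found by symbol among the 19991 genes of the count table. All 10 were among the 15834 genes with enough counts to be tested. Poly(A) RNA of whole testis was sequenced from 9 libraries, 3 per group. The AZ82 group had received an injection of the KIFC1 inhibitor AZ82 at 1 µM, the CW069 group an injection of the KIFC1 inhibitor CW069 at 50 µM, and the Control group an injection of PBS. All groups were ICR mice, an outbred stock, of 8 weeks of age. Both compounds are known here by their code names, and their doses differed. The route of injection and the interval to sampling are not given in the sources used here. Since nothing states that the 3 libraries of a group come from different animals, p-values describe the spread between these libraries, part of which may be technical.

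Sertoli cells are the somatic nurse cells of the seminiferous tubule. They carry the receptor for follicle-stimulating hormone (FSH), return inhibin to the pituitary as a brake on FSH, and form the blood-testis barrier. They also make the ligands KITL and GDNF, which bind receptors on spermatogonia and set the balance of germ cell renewal and differentiation.

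Of the 10 genes, Cst12 and Fshr were the ones whose levels in AZ82 libraries did not overlap those in Control libraries, so the 250 bases upstream of their start sites are shown (RefSeq table, GRCm38.p6, 5′ to 3′ on the gene's strand). Cst12 is on the plus strand at chr2:148789115-148789364 and Fshr on the minus strand at chr17:89200676-89200925. Capitals mark the E-box CACGTG, a palindrome that reads alike on both strands.
Cst12: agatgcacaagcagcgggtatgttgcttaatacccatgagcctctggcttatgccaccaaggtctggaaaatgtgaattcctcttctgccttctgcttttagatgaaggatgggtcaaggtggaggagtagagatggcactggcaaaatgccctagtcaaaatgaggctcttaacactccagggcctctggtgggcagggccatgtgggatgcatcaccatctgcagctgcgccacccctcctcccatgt
Fshr: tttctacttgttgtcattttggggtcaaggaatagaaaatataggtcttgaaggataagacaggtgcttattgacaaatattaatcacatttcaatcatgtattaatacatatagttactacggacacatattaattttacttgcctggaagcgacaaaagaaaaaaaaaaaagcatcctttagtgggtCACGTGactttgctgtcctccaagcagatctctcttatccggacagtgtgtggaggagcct
The table held start-site windows for 6 of the 10 genes, Fshr, Kitl, Gdnf, Inha, Cst12 and Rhox5. Each window, from 250 bases before to 50 bases after the start, was searched on both strands for 7 motifs. These were GATA sites (AGATAA or AGATAG or TGATAA or TGATAG), SOX sites (AACAAT or AACAAAG), the NR5A site AAGGTCA, the CRE half-site TGACG, the ARE half-site AGAACA, the E-box CACGTG and the TATA box TATAAA. Fshr held the E-box from base -61 to base -56, and 7.2% of all 32851 windows of that length held 1. Kitl held a TATA box, as did 13.6% of windows. Gdnf, with 2 start sites, held a TATA box, a CRE half-site and an ARE half-site at the first and a pair of overlapping GATA sites at the second. Rhox5 held a SOX site that overlaps an ARE half-site, motifs present in 15.7% and 19.0% of windows. The listed Cst12 and Inha windows held none of these letters. The Inha bases contain a stretch that can be read as coding sequence, so this window may lie within the gene. Bases upstream of any other Inha start site were not searched. GATA sites occurred in 29.8% of all windows, the CRE half-site in 20.8% and the NR5A site in 4.7%.

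Library totals ran from 13856070 to 18102593 counts. Control 3 stood apart from the rest: its summed level of 8 elongating spermatid markers was 5927 CPM (the count scaled to library size, with TMM factors), against 11720 to 17749 CPM in the other 8 libraries. Differences from Control are therefore given with and without Control 3 for each of the 10 genes. The Sertoli identity of the signal was checked with 19 other Sertoli markers, all of which were tested, and whose summed level was 1560 to 1750 CPM in AZ82, 1611 to 1950 CPM in CW069 and 1705 to 1890 CPM in Control libraries. Foxl2, which marks the granulosa cell fate of the ovary, had at most 0.145 CPM in any library. Of 5 epididymis markers, Crisp1, Adam7, Lcn5 and Lcn8 were at or near 0, and Rnase10 was at 2.497 to 5.16 CPM over the 9 libraries. In whole-testis RNA, fewer Sertoli cells and less RNA per Sertoli cell cannot be told apart.

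At baseline the 10 genes covered a wide range of abundance. Compared per transcript length in Control libraries, Cst12 had the highest level with 84.9 ± 3.34 CPM per kilobase (SD, n = 3). Inha followed with 79.3 ± 12.1 CPM per kilobase, and the ranges of these 2 genes overlapped. Rhox5 came next at 17.2 CPM per kilobase, then Wt1 at 12.2, Gata4 at 8.62, Kitl at 5.71, Sox9 at 3.53, Fshr at 2.57, Amh at 1.73 and Gdnf at 0.416 CPM per kilobase. From Inha downward, no neighbours in this order overlapped over the 3 Control libraries. Raw counts per library ranged from 17 to 37 for Gdnf and from 23 to 50 for Amh, so these genes carry the largest counting error, whereas Inha had 1155 to 2156 counts.

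None of the 10 genes passed edgeR's quasi-likelihood test after Benjamini-Hochberg adjustment over all genes at 0.05 in any comparison. In AZ82 against Control the test called 0% of all genes, as it did in CW069 against Control and in CW069 against AZ82. The 3 comparisons had 1399, 1162 and 787 genes with an unadjusted p under 0.05, and DESeq2 called 6, 28 and 13 genes. For the mean of both inhibitors against Control, edgeR called 0.00632% of genes and DESeq2 called 15 genes, again with no member among them. A median gene's 95% interval reached 0.28 to either side on the log2 scale, a factor of 1.21. The 2 inhibitor groups were compared with the same 3 Control libraries, so their differences from Control are not independent of each other.

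**Figure D1:**
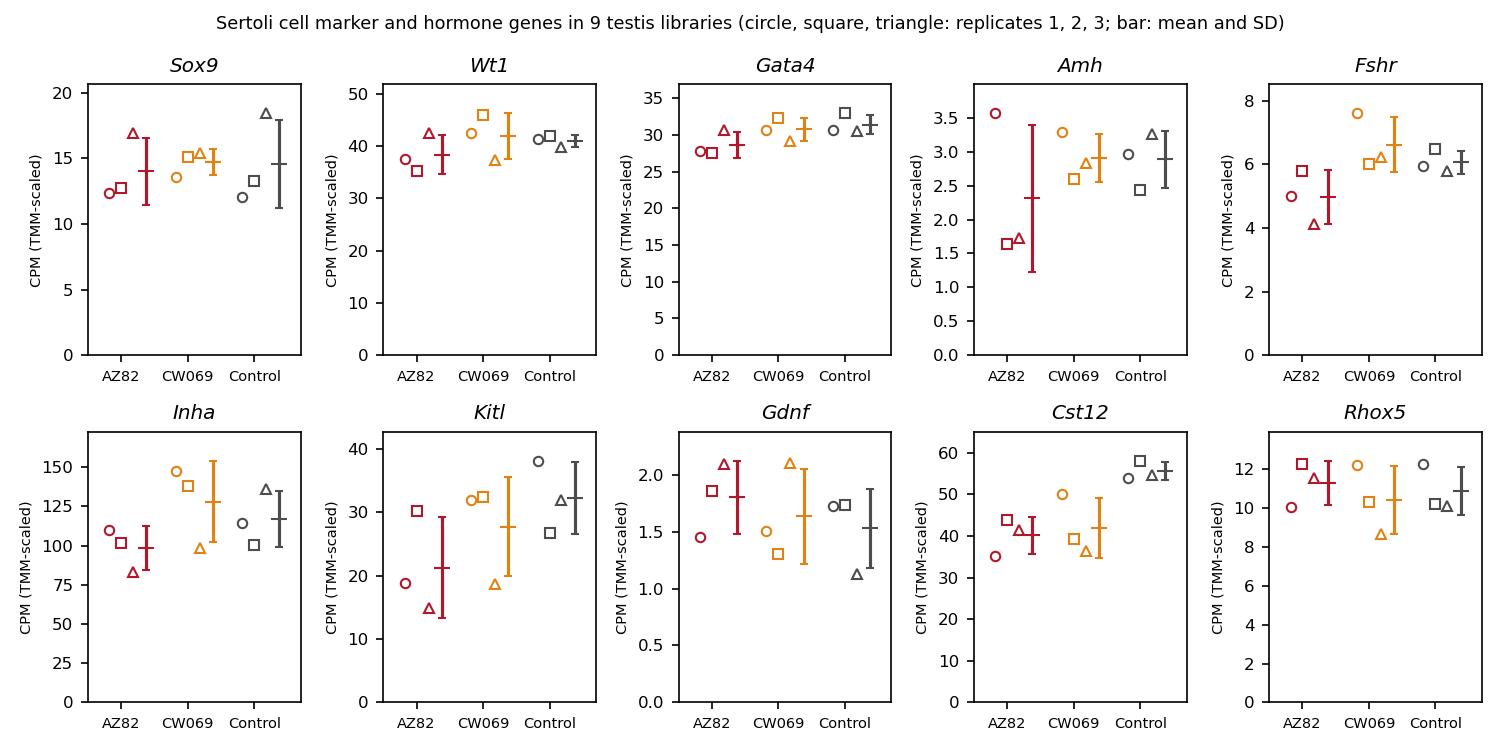
Level of each gene in CPM (TMM-scaled, linear axis from 0) in AZ82, CW069 and Control libraries; symbols are single libraries and bars the group mean with SD (n = 3). Cst12 is the gene with all 6 inhibitor libraries, 35.3 to 50.03 CPM, under all 3 Control libraries, 54.1 to 58.1 CPM.

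The transcription factors that establish and hold Sertoli cell identity were close in level between the groups. SOX9, which starts testis development in the fetus and stays on in adult Sertoli cells, had transcript levels of 12.4, 12.7 and 16.9 CPM in AZ82, 13.6, 15.1 and 15.4 CPM in CW069, and 12.1, 13.3 and 18.4 CPM in Control libraries. The groups overlapped throughout, and the log2 difference was -0.06 ± 0.17 (SE, 95% interval -0.44 to 0.32) for AZ82 against Control and 0.01 ± 0.17 (-0.36 to 0.38) for CW069 against Control. The highest Sox9 level was in Control 3, and without that library both differences were above 0, at 0.14 and 0.21.

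Wt1 encodes a zinc finger factor needed to maintain Sertoli cells in the adult testis. Its levels were 37.5, 35.2 and 42.5 CPM in AZ82, 42.4, 46.0 and 37.3 CPM in CW069, and 41.4, 42.0 and 39.7 CPM in Control libraries. The groups overlapped, with log2 differences of -0.10 ± 0.09 for AZ82 and 0.03 ± 0.09 for CW069 against Control (-0.12 and 0.01 without Control 3). Gata4, a zinc finger factor of both Sertoli and Leydig cells, was at 27.8, 27.5 and 30.6 CPM in AZ82, 30.7, 32.3 and 29.2 CPM in CW069, and 30.7, 32.9 and 30.6 CPM in Control libraries. Its 3 AZ82 values all lay under the Control mean of 31.4 CPM, but the highest of them, 30.648 CPM, exceeded the lowest Control value, 30.574 CPM. The Gata4 difference was -0.13 ± 0.08 for AZ82 (95% interval -0.30 to 0.03, unadjusted p = 0.108, edgeR adjusted p = 0.613) and -0.03 ± 0.08 for CW069 (-0.16 and -0.05 without Control 3). Gata4 was the steadiest of the 10 genes, with a 1.20-fold span between its lowest and highest library.

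Amh encodes anti-Müllerian hormone, the fetal Sertoli cell signal that removes the Müllerian ducts and that is turned down at puberty. Its transcript was scarce, at 3.56, 1.64 and 1.73 CPM in AZ82, 3.28, 2.60 and 2.84 CPM in CW069, and 2.97, 2.44 and 3.26 CPM in Control libraries. AZ82 2 and AZ82 3 were the lowest of the 9 libraries and AZ82 1 was the highest, so the AZ82 group spanned the others. The log2 difference was -0.32 ± 0.29 for AZ82 and 0.01 ± 0.28 for CW069 against Control. The AZ82 value moved with single AZ82 libraries. It was -0.77 without AZ82 1 (unadjusted p = 0.00837) and -0.12 without AZ82 2 (unadjusted p = 0.689). Without Control 3 it was -0.23 (0.11 for CW069). The counts behind the 2 low libraries were 23 and 24, against 49 in AZ82 1. Amhr2, the type II AMH receptor, was at 157 ± 6.78 CPM in AZ82, 166 ± 19.8 CPM in CW069 and 165 ± 15.1 CPM in Control libraries (SD, n = 3 each).

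Fshr, the receptor through which FSH acts and in testis a Sertoli cell gene, was at 5.02, 5.78 and 4.11 CPM in AZ82, 7.60, 6.02 and 6.24 CPM in CW069, and 5.93, 6.48 and 5.78 CPM in Control libraries. All AZ82 values were under all CW069 values and under all Control values. The margin to Control was narrow, between AZ82 2 at 5.7808 CPM and Control 3 at 5.7824 CPM. The log2 difference for AZ82 against Control was -0.29 ± 0.16 (95% interval -0.64 to 0.06, unadjusted p = 0.0994, edgeR adjusted p = 0.607), and -0.32 without Control 3. CW069 against Control gave 0.12 ± 0.15 (-0.22 to 0.46), and 0.09 without Control 3. The direct difference of CW069 from AZ82 was 0.41 ± 0.16 (0.06 to 0.76, unadjusted p = 0.0250, edgeR adjusted p = 0.977). Its unadjusted p stayed under 0.05 in 14 of 17 other settings and was at most 0.102, the value without CW069 1.

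Inha encodes the inhibin alpha subunit, which joins a beta subunit to form the hormone that lowers pituitary FSH. It was at 110.2, 102 and 83.3 CPM in AZ82, 148, 138 and 98.5 CPM in CW069, and 115, 100.3 and 136 CPM in Control libraries. CW069 1 and CW069 2 were the highest of the 9 libraries and AZ82 3 the lowest, with overlap between all pairs of groups. The log2 difference was -0.25 ± 0.16 for AZ82 against Control and 0.13 ± 0.16 for CW069 against Control, or -0.13 and 0.25 without Control 3. CW069 differed from AZ82 by 0.38 ± 0.16 (95% interval 0.02 to 0.74, unadjusted p = 0.0406, edgeR adjusted p = 0.984), with an unadjusted p under 0.05 in 13 of 17 other settings and 0.160 without CW069 1. Inhbb, the beta subunit of inhibin B, varied little, at 30.5 ± 2.33 CPM in AZ82, 32.6 ± 2.09 CPM in CW069 and 32.3 ± 1.69 CPM in Control libraries. The raw count ratio of Inha to Inhbb was 2.99 to 3.46 in AZ82, 3.19 to 4.33 in CW069 and 3.18 to 4.37 in Control libraries.

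Kitl, the ligand of the KIT receptor on differentiating spermatogonia, spread most between libraries, with a 2.57-fold span. It was at 18.8, 30.2 and 14.9 CPM in AZ82, 32.0, 32.5 and 18.7 CPM in CW069, and 38.1, 26.7 and 32.0 CPM in Control libraries. AZ82 1, AZ82 3 and CW069 3 were the 3 lowest libraries, and AZ82 2 lay within the Control range. AZ82 differed from Control by -0.60 ± 0.27 on the log2 scale (95% interval -1.19 to -0.01, unadjusted p = 0.0474, edgeR adjusted p = 0.564). That difference was -0.94 without AZ82 2, -0.39 without AZ82 3 (unadjusted p = 0.174) and -0.61 without Control 3 (unadjusted p = 0.0595). The CW069 difference was -0.22 ± 0.26, and 0.001 without CW069 3. Kit, the receptor, was at 36.7 ± 5.08 CPM in AZ82, 31.2 ± 6.61 CPM in CW069 and 33.7 ± 5.86 CPM in Control libraries.

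Gdnf, the niche factor that keeps spermatogonial stem cells renewing through GFRA1 and RET, was the scarcest of the 10 genes. It was at 1.45, 1.86 and 2.09 CPM in AZ82, 1.51, 1.30 and 2.10 CPM in CW069, and 1.72, 1.73 and 1.13 CPM in Control libraries. The groups overlapped, with log2 differences of 0.24 ± 0.28 (95% interval -0.38 to 0.85) for AZ82 and 0.11 ± 0.28 (-0.50 to 0.72) for CW069 against Control, or 0.06 and -0.07 without Control 3. Ret, the signalling chain of the GDNF receptor, was at 3.64, 3.07 and 3.17 CPM in AZ82, 3.83, 3.35 and 4.14 CPM in CW069, and 3.73, 4.55 and 4.45 CPM in Control libraries. The 3 AZ82 values were under all Control values (log2 difference -0.37 ± 0.16, unadjusted p = 0.0453, edgeR adjusted p = 0.561).

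Cst12, a testis cystatin of the family of secreted cysteine protease inhibitors, was the gene of the 10 with lower values than Control in both inhibitor groups without overlap. It was at 35.3, 43.8 and 41.4 CPM in AZ82, 50.03, 39.4 and 36.3 CPM in CW069, and 54.1, 58.1 and 54.6 CPM in Control libraries. All 6 inhibitor libraries lay under all 3 Control libraries, with means of 40.2 ± 4.41 CPM in AZ82, 41.9 ± 7.19 CPM in CW069 and 55.6 ± 2.19 CPM in Control libraries (SD, n = 3 each). The AZ82 difference from Control was -0.47 ± 0.12 on the log2 scale, a 0.722-fold level (95% interval 0.602 to 0.866, unadjusted p = 0.00243, edgeR adjusted p = 0.554). The CW069 difference was -0.41 ± 0.12, a 0.753-fold level (0.628 to 0.902, unadjusted p = 0.00553, edgeR adjusted p = 0.524). For the mean of both inhibitors it was -0.44 ± 0.10 (unadjusted p = 0.00125, edgeR adjusted p = 0.479), lower in 6 of 6 libraries. CW069 against AZ82 gave 0.06 ± 0.12, with a 95% interval of -0.20 to 0.32.

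The Cst12 difference was about as large without Control 3, at -0.49 for AZ82 and -0.42 for CW069. Its unadjusted p was under 0.05 in 17 of 17 other settings for AZ82 and in 17 of 17 for CW069, with edgeR, DESeq2 or limma-voom adjusted p from 0.338 to 0.829 and from 0.369 to 0.817. Leydig cell markers had mostly negative log2 differences too: 8 of 9 were below 0 for AZ82 and 9 of 9 for CW069, beside 50.3% and 51% of all genes. Their summed level was 1519 to 1856 CPM in AZ82, 1443 to 1512 CPM in CW069 and 1787 to 1910 CPM in Control libraries, with none of the 9 at 0. Their part in the Cst12 result was not tested.

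Rhox5, an X-linked homeobox gene that androgen switches on in Sertoli cells, was at 10.04, 12.3 and 11.5 CPM in AZ82, 12.2, 10.3 and 8.68 CPM in CW069, and 12.3, 10.2 and 10.1 CPM in Control libraries. The groups overlapped, with log2 differences of 0.06 ± 0.15 for AZ82 and -0.07 ± 0.15 for CW069 against Control, or 0.00 and -0.11 without Control 3.

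**Figure D2:**
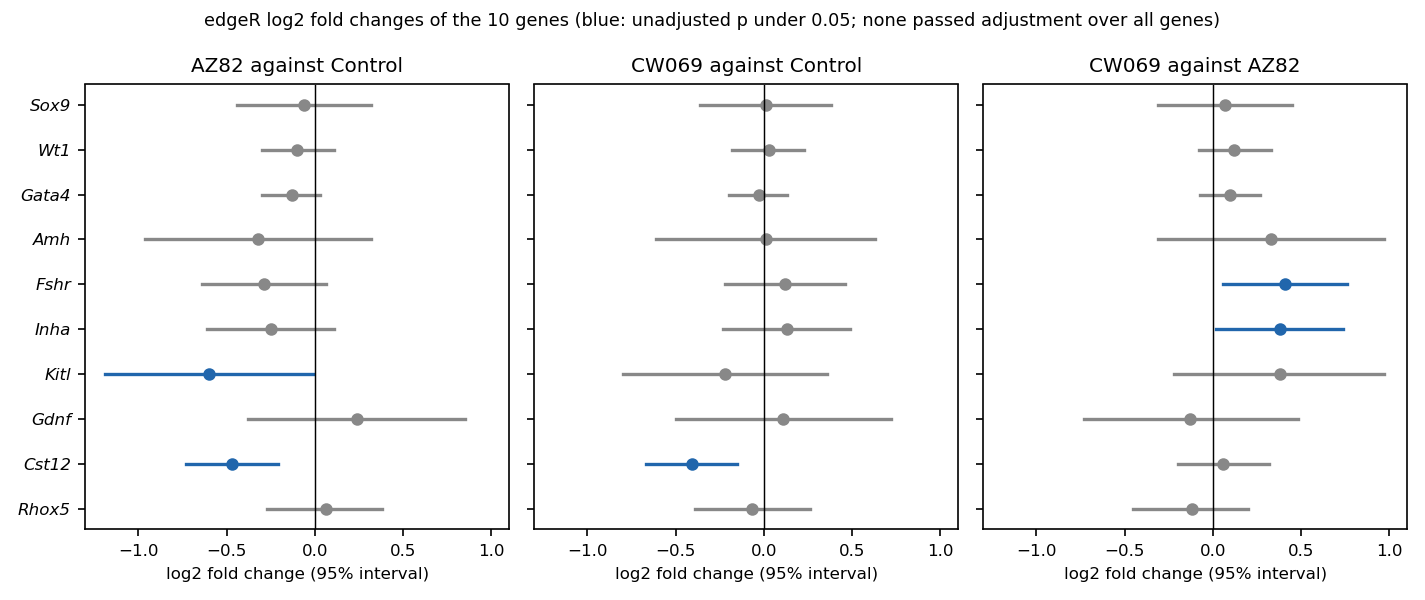
edgeR log2 fold changes with 95% intervals for AZ82 against Control, CW069 against Control and CW069 against AZ82; blue marks an unadjusted p under 0.05. Cst12 lies under 0 against Control with both inhibitors, at -0.47 and -0.41, and Fshr and Inha lie above 0 in CW069 against AZ82, at 0.41 and 0.38.

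Most of the 10 genes had a lower fitted level in AZ82 than in Control, none past the adjusted test. In AZ82 against Control, 8 of 10 had a log2 difference below 0, with a median of -0.19, beside 50.3% of all genes and a median of 0.00 for all genes. An unadjusted p under 0.05 with a lower level was found for 2 of the 10, Cst12 and Kitl, beside 4.79% of all genes, and for 0 of the 10 with a higher level, beside 4.04%. No overlap with Control, on the lower side, was found for 2 of the 10, Cst12 and Fshr, beside 8.62% of all genes, and on the higher side for 0 of the 10, beside 6.65%. Without Control 3, 7 of 10 were below 0 with a median of -0.14, beside 50.2% of all genes, and 1 of the 10, Cst12, kept an unadjusted p under 0.05. Counted by library against the Control mean, 9, 8 and 6 of the 10 genes were lower in AZ82 1, AZ82 2 and AZ82 3. The same count was 5, 5 and 6 in Control 1, 2 and 3, and 4, 5 and 7 in CW069 1, 2 and 3. AZ82 3 thus had the same count as Control 3, but the median log2 difference of the 10 genes was -0.23 in AZ82 3 and -0.03 in Control 3. Each Control library is itself part of the Control mean, so its count is not a like reference. Over 17 other settings the number of the 10 with an unadjusted p under 0.05 ran from 1 to 4. With library size alone as the scaling, 9 of 10 were below 0, beside 68.8% of all genes.

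Markers of other cell types were also compared between AZ82 and Control libraries, and none passed the adjusted test. Below 0 were 8 of 9 Leydig markers (median -0.25), 6 of 8 macrophage markers (median -0.21) and 3 of 4 red blood cell markers (median -0.57). Of all genes, 50.3% were below 0. Above 0 were 8 of 8 elongating spermatid markers (median 0.39), 6 of 6 round spermatid markers (median 0.14) and 4 of 4 adipocyte markers (median 0.33). Summed adipocyte markers were at 36.6 CPM in AZ82 2, and at 15.1 and 16.0 CPM in AZ82 1 and AZ82 3. Less one-sided were spermatogonial markers with 5 of 7 below 0 (median -0.12), and endothelial markers with 3 of 5 (median -0.07). Spermatocyte and peritubular myoid markers had 3 of 6 below 0 each (medians -0.02 and 0.03). Control 3 was the lowest library for both spermatid lists. Centred on the 9 libraries, mean log2 levels of elongating spermatid markers were 0.13, 0.24 and 0.43 in AZ82. They were 0.28, 0.09 and -1.11 in Control 1, 2 and 3. For round spermatid markers they were 0.07, 0.14 and -0.03 in AZ82, and -0.07, 0.02 and -0.22 in Control libraries. The marker counts are not given without Control 3. Summed macrophage markers were at 144 to 199.7 CPM in AZ82 and 189 to 241 CPM in Control libraries, and red blood cell markers at 57.8 to 64.9 CPM in AZ82 and 49.1 to 107 CPM in Control libraries. Summed elongating spermatid markers were at 14453 to 17749 CPM in AZ82 and 5927 to 15967 CPM in Control libraries, and round spermatid markers at 1010.0 to 1114 CPM in AZ82 and 886 to 1037 CPM in Control libraries. No marker of these lists was at 0 in all libraries. Their part in the direction of the 10 genes was not tested.

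In CW069 against Control, 4 of 10 were below 0 with a median of 0.01, beside 51% of all genes. With library size alone, 7 of 10 were below 0, beside 63.7% of all genes. Only Cst12 had an unadjusted p under 0.05, beside 3.71% of all genes on the lower side, and only Cst12 did not overlap Control, beside 7.24%. On the higher side both counts were 0 of 10, beside 3.63% of all genes for the p and 6.13% for no overlap. Without Control 3, 5 of 10 were below 0, beside 50.9% of all genes. In CW069 against AZ82, 8 of 10 were above 0 with a median of 0.11, and 2 of 10 were below 0, beside 50.4% of all genes. Fshr and Inha had an unadjusted p under 0.05 on the higher side, beside 2.58% of all genes, a number that ran from 0 to 3 over 17 other settings, and Fshr did not overlap, beside 5.52%. On the lower side both counts were 0 of 10, beside 2.39% of all genes for the p and 5.8% for no overlap. For the mean of both inhibitors, 9 of 10 were below 0 with a median of -0.07, beside 50.9% of all genes, and Cst12 had an unadjusted p under 0.05, beside 5.27% on the lower side (0 of 10 on the higher side, beside 4.31%). Cst12 was also the gene without overlap, beside 2.92% of all genes on the lower side and 2.19% on the higher side, where 0 of 10 stood.

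The level of each gene was then set against the other Sertoli markers of the same library, as log2 CPM minus the mean log2 CPM of 19 markers. On this measure Cst12 differed from Control by -0.31 in AZ82 and -0.42 in CW069, in both cases without overlap. Kitl differed by -0.47 in AZ82 and -0.25 in CW069, with overlap. Cst9, a further cystatin of Sertoli cells named here after its values were seen, varied widely within AZ82, at 12.1, 92.1 and 17.0 CPM, against 105, 86.7 and 82.9 CPM in CW069 and 63.2, 102.5 and 56.2 CPM in Control libraries. Leaving Cst9 out of the markers, a choice made after seeing the data, Cst12 differed by -0.37 in AZ82 and -0.40 in CW069, again with no overlap. Gdnf and Rhox5 lay above Control in AZ82 without overlap when all 19 markers were used, by 0.35 and 0.22. Both overlapped Control once Cst9 was left out, at 0.28 and 0.15. The share of all genes without overlap on this measure was not computed. The cases of Cst12, Gdnf and Rhox5 therefore stand without that reference.

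**Figure D3:**
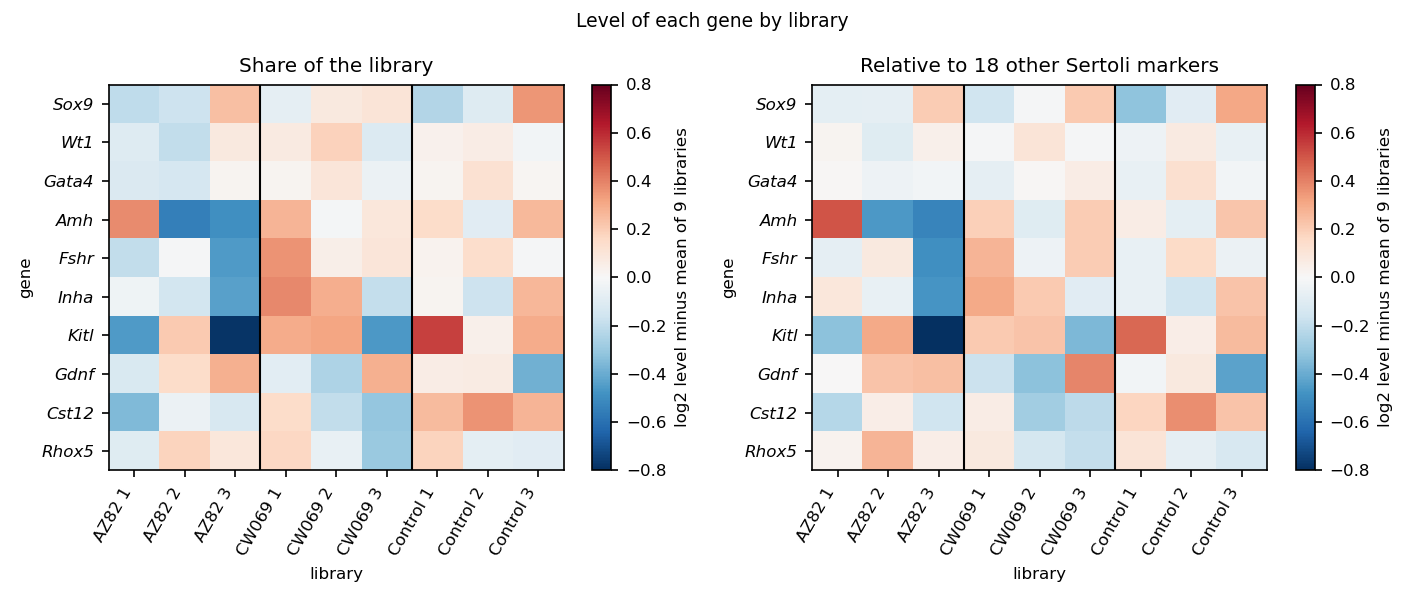
Log2 level of each gene in each library, centred on its mean over 9 libraries, as a share of the library (left) and relative to 18 other Sertoli markers without Cst9 (right). The Cst12 row is at or under 0.06 in all 6 inhibitor libraries and at or above 0.17 in the Control libraries on the right, and the Kitl row is lowest in AZ82 3 at -0.83.

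The other Sertoli cell markers were mostly below 0 in AZ82, 16 of 19 with a median of -0.15, against 10 of 19 with a median of -0.01 in CW069. Of all genes, 50.3% and 51% were below 0. An unadjusted p under 0.05 with a lower level was found for 1 of 19 in each group, beside 4.79% and 3.71% of all genes. With a higher level it was 0 of 19 in AZ82 and 2 of 19 in CW069, beside 4.04% and 3.63%. In CW069 against AZ82 it was 2 of 19 on the higher side, beside 2.58%, and 0 of 19 on the lower side, beside 2.39%. No gene of this or any other list passed adjustment over all genes, so the values below are given at unadjusted p. Vim, an intermediate filament gene of Sertoli and other somatic cells, was at 97.2 ± 3.35 CPM in AZ82 against 113 ± 10.3 CPM in Control libraries (log2 difference -0.21 ± 0.09, unadjusted p = 0.0289, edgeR adjusted p = 0.554). Rhox8, another Rhox gene of Sertoli cells, differed by 0.47 ± 0.13 in CW069 against AZ82 (unadjusted p = 0.00480, edgeR adjusted p = 0.817), with 7.83 to 10.4 CPM in CW069 and 6.62 to 7.14 CPM in AZ82 libraries. Tubb3 and Rhox8 (0.16 and 0.29 in CW069 against Control) and Gatm (0.20 in CW069 against AZ82) also had an unadjusted p under 0.05. Without Control 3 the value was -0.22 for Vim in AZ82, with an unadjusted p of 0.0382. Those of Tubb3 and Rhox8 in CW069 against Control became 0.14 and 0.26, with an unadjusted p of 0.115 and 0.118.

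The FSH receptor signals through cAMP and protein kinase A. In whole testis, 17 genes of this signalling had medians of -0.06 in AZ82 and -0.03 in CW069 against Control. Of these, 12 and 9 of 17 were below 0, beside 50.3% and 51% of all genes. The cell type behind these levels was not resolved. Prkar2a, for example, was at 227, 183 and 76.0 CPM in Control 1, 2 and 3, lowest in the library with the lowest elongating spermatid markers. In each inhibitor group 2 of 17 had an unadjusted p under 0.05, both lower, beside 4.79% of all genes in AZ82 and 3.71% in CW069. Prkacb, a catalytic subunit of protein kinase A, was at 16.1, 17.1 and 16.3 CPM in AZ82, 17.9, 16.3 and 17.9 CPM in CW069, and 21.5, 19.2 and 19.3 CPM in Control libraries. All 6 inhibitor libraries were under all Control libraries, 1 of 17 beside 2.92% of all genes. The Prkacb log2 differences were -0.28 ± 0.09 for AZ82 (unadjusted p = 0.00788, edgeR adjusted p = 0.554) and -0.20 ± 0.08 for CW069 (unadjusted p = 0.0370, edgeR adjusted p = 0.666). Igf1r, whose receptor signals together with FSH in Sertoli cells, differed by -0.21 ± 0.09 in AZ82, and Pde4b, which breaks down cAMP, by -0.24 ± 0.10 in CW069. Without Control 3, Prkacb stood at -0.31 in AZ82 and -0.23 in CW069, Igf1r at -0.28 in AZ82 and Pde4b at -0.21 in CW069, where its unadjusted p was 0.107.

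Among 13 genes of inhibin and activin signalling other than Inha, 11 were below 0 in AZ82 (median -0.08) and 8 in CW069 (median -0.05) against Control, beside 50.3% and 51% of all genes. Of the 13, 3 had an unadjusted p under 0.05 in AZ82, all lower, and 0 in CW069, beside 4.79% and 3.71% of all genes on the lower side. Smad3 and Smad2 carry the activin signal to the nucleus. Smad3 was at 15.1 ± 1.74 CPM in AZ82 and 18.9 ± 1.20 CPM in Control libraries (log2 difference -0.32 ± 0.10, unadjusted p = 0.0106, edgeR adjusted p = 0.554), and Smad2 at 31.0 ± 1.21 CPM in AZ82 and 36.1 ± 2.25 CPM in Control libraries (-0.22 ± 0.08, unadjusted p = 0.0144, edgeR adjusted p = 0.554). Fst, which encodes the activin trap follistatin, was scarce, at 0.4996 to 0.649 CPM in AZ82, 0.889 to 1.30 CPM in CW069 and 0.641 to 1.104 CPM in Control libraries. In CW069 against AZ82, Fst differed by 0.91 ± 0.33 and Smad3 by 0.26 ± 0.10, both without overlap, 2 of 13 beside 5.52% of all genes. Without Control 3 the AZ82 differences were -0.30 for Smad3, -0.18 for Smad2 (unadjusted p = 0.0533) and -0.65 for Fst (unadjusted p = 0.142).

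Among 9 tested genes of AMH signalling other than Amh, 6 were below 0 in AZ82 and 5 in CW069, with medians of -0.07 and -0.08. Of all genes, 50.3% and 51% were below 0. An unadjusted p under 0.05 with a lower level was found for 1 of 9 in AZ82 and 0 of 9 in CW069, beside 4.79% and 3.71% of all genes. That 1 gene in AZ82 was Bmpr1a, a type I receptor that AMH uses, at 29.7 ± 2.19 CPM in AZ82 and 34.5 ± 1.03 CPM in Control libraries (-0.22 ± 0.08, unadjusted p = 0.0224, edgeR adjusted p = 0.554). It was -0.24 without Control 3.

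Genes of spermatogonia that receive or respond to KITL and GDNF numbered 17 tested, of which 11 were below 0 in AZ82 (median -0.06) and 8 in CW069 (median 0.06) against Control. Of all genes, 50.3% and 51% were below 0. In AZ82, 4 of 17 had an unadjusted p under 0.05, all lower, and in CW069 0 of 17, beside 4.79% and 3.71% of all genes on the lower side. Stra8, which commits germ cells to meiosis, was at 8.58, 9.85 and 9.23 CPM in AZ82 against 10.5, 12.2 and 11.8 CPM in Control libraries, with no overlap (-0.32 ± 0.11, unadjusted p = 0.0152, edgeR adjusted p = 0.554). Sohlh2, a factor of spermatogonial differentiation, differed by -0.40 ± 0.17, and Etv5, a GDNF target of stem spermatogonia, by -0.20 ± 0.08. Ret, described above, was the fourth. No overlap with Control on the lower side was found for 2 of 17 in AZ82, Stra8 and Ret, beside 8.62% of all genes. Without Control 3, Stra8 was at -0.30 and Etv5 at -0.27, with an unadjusted p under 0.05, and Sohlh2 was at -0.29 and Ret at -0.34, with an unadjusted p of 0.118 and 0.112. Gfra1, the GDNF-binding receptor, differed by 0.41 ± 0.18 in CW069 against AZ82 (unadjusted p = 0.0444, edgeR adjusted p = 0.990), with 5.61 to 7.38 CPM in CW069 and 4.07 to 5.53 CPM in AZ82 libraries.

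Regulators of Sertoli and granulosa fate, 15 tested, were below 0 in 11 cases in AZ82 (median -0.13) and in 12 cases in CW069 (median -0.07) against Control. Of all genes, 50.3% and 51% were below 0. An unadjusted p under 0.05 with a lower level was found for 1 of 15 in AZ82 and 3 of 15 in CW069, beside 4.79% and 3.71% of all genes. With a higher level it was 0 and 1 of 15, beside 4.04% and 3.63%. Nr5a1, the steroidogenic factor of Leydig and Sertoli cells, was at 44.3, 41.3 and 45.3 CPM in AZ82, 43.3, 45.8 and 43.4 CPM in CW069, and 51.3, 60.04 and 49.8 CPM in Control libraries. As with Cst12, all 6 inhibitor libraries were under all Control libraries, 1 of 15 beside 2.92% of all genes. Its log2 differences were -0.30 ± 0.08 in AZ82 (unadjusted p = 0.00378, edgeR adjusted p = 0.554) and -0.28 ± 0.08 in CW069 (unadjusted p = 0.00531, edgeR adjusted p = 0.524). The Leydig markers given beside Cst12 had negative differences in the same groups, and their part in the Nr5a1 result was not tested. Cbx2, a Polycomb gene needed for testis determination, differed by -0.47 ± 0.15 and Zfpm1, a GATA4 cofactor, by 0.20 ± 0.08 in CW069 against Control. Without Control 3, Nr5a1 stood at -0.36 in AZ82 and -0.33 in CW069, Cbx2 at -0.31 and Zfpm1 at 0.14 (unadjusted p = 0.128). Ptgds, a prostaglandin synthase that sustains Sox9 in the fetal gonad, differed by -1.16 ± 0.38 in CW069 against AZ82 and spanned 16.01 to 71.6 CPM over the libraries of these groups.

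Of 14 other cystatin genes listed, 12 were in the table and 9 were tested, with 6 below 0 in AZ82 and 2 below 0 in CW069. Of all genes, 50.3% and 51% were below 0. In CW069, Cst3 and Cstb lay under Control without overlap, 2 of 9 beside 7.24% of all genes. In AZ82 0 of 9 did so, beside 8.62%. Without overlap on the higher side were 1 of 9 in AZ82 and 0 of 9 in CW069, beside 6.65% and 6.13%. Cstl1, a cystatin-like gene, was the family member with a p under 0.05: it was at 32.1, 28.1 and 43.6 CPM in AZ82, 31.8, 26.5 and 33.9 CPM in CW069, and 27.2, 23.99 and 14.2 CPM in Control libraries. Its log2 differences were 0.67 ± 0.22 in AZ82 and 0.50 ± 0.22 in CW069, opposite in sign to those of Cst12. An unadjusted p under 0.05 on the higher side was thus found for 1 of 9 in each group, beside 4.04% and 3.63% of all genes. The lowest Cstl1 value was in Control 3, and without that library the differences were 0.43 (unadjusted p = 0.0263) and 0.27 (unadjusted p = 0.138). Of 12 other Rhox genes, 3 were tested, with 2 below 0 in AZ82 (median -0.18) and all 3 above 0 in CW069 (median 0.27).

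**Figure D4:**
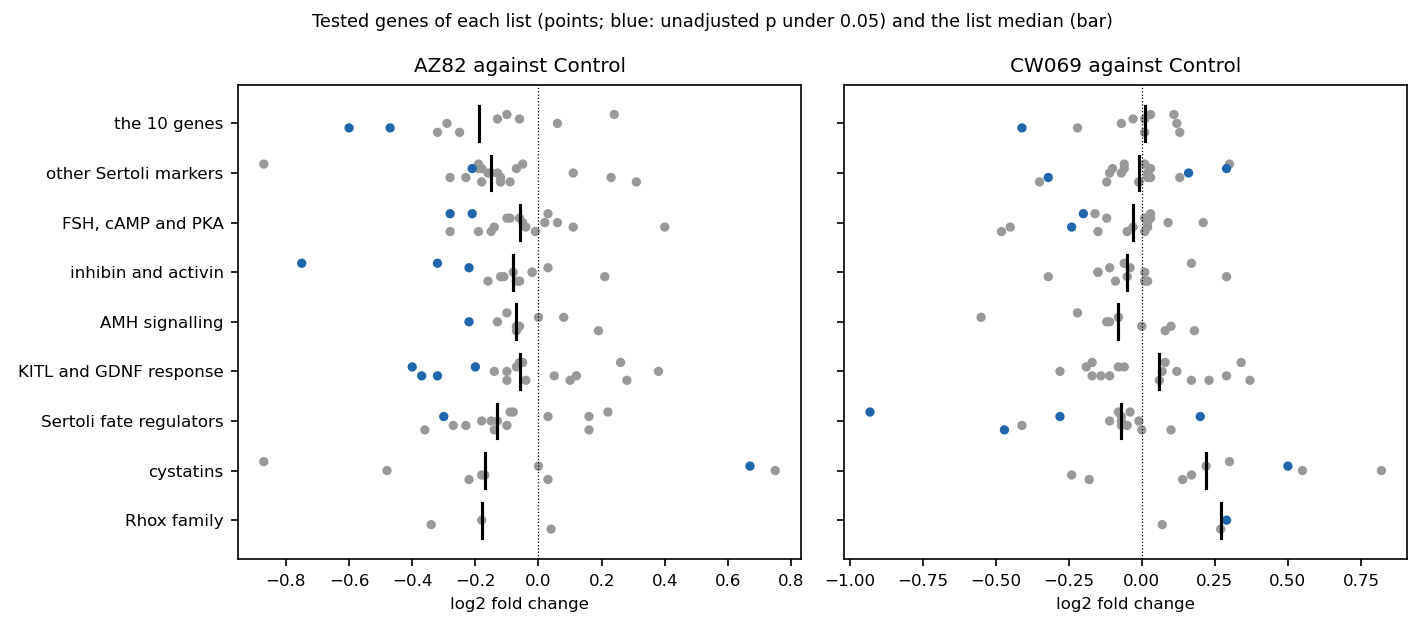
Log2 fold changes of the tested genes of each list for AZ82 (left) and CW069 (right) against Control; points are genes, blue marks an unadjusted p under 0.05 and bars are list medians. The 10 genes have medians of -0.19 and 0.01, and the other Sertoli markers medians of -0.15 and -0.01.

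The genes most like the 3 most variable members were sought by the smallest root mean square difference of centred log2 CPM over the 9 libraries, among 14153 genes. For Kitl, which itself spread by 0.429 around its mean, these were Ccdc149 (0.189), Gstk1 (0.189) and Trub1 (0.202). For Amh, with a spread of 0.31, they were Tspan7 (0.132), Ezhip (0.149) and Tada1 (0.16). For Inha, with a spread of 0.255, they were Wfdc1 (0.104), Psen2 (0.107) and Adprm (0.122).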

How the data were processed

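Testis RNA libraries were prepared with a TruSeq stranded mRNA kit, per the labels' protocols. The authors deposited raw counts of reads per gene. The submitters' processing notes name Trimmomatic, HISAT2, HTSeq and the build GRCm39; versions, settings and the strand option of the counting are not given in the sources used here. The joint table and the single-library files held equal values for 19991 genes, no row named anything but a gene, and no 2 libraries agreed within sampling noise: the mean chi-square per gene between libraries was at least 3.98, where 1 is sampling noise.

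Libraries were grouped by title. After filterByExpr, 15834 genes remained. TMM-scaled counts of all 9 libraries entered a single edgeR 4.0.16 model (R 4.3.3) with the group as its term and 6 residual degrees of freedom. The two-sided quasi-likelihood F test was used, with Benjamini-Hochberg adjustment over all genes and a threshold of 0.05. The steps were checked on simulated counts. Log2 CPM values used an added 0.5 CPM. Lengths are exon unions of GENCODE M21, an earlier build than the authors' own, in which no exon of the 10 genes overlaps another gene. Promoters come from the RefSeq table of GRCm38.p6; Sox9, Wt1, Gata4 and Amh had no entry there. Libraries held 13856070 to 18102593 counts each, which sets the precision of the scarce genes.

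The 10 genes, the gene lists and the tests were chosen with earlier results of these data known. Genes named besides the 10 were, per list and comparison, up to 3 with the smallest unadjusted p under 0.05, of which 1 is not reported here; likeness was sought for the 3 of the 10 with the largest SD of log2 CPM, over genes that average 1 CPM or more and are not predicted genes. Cst3, Cst9, Cstb, Ret, Kit, Amhr2, Inhbb and Foxl2 were named after their values were seen or as partners. Alternatives were RLE factors, library size alone, no filter, a filter of 1 CPM in 3 libraries, limma-voom (limma 3.58.1), DESeq2 1.42.0, the compared groups only, the replicate number as a block, and each library left out.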

Additional observations from a re-analysis of the deposited data

How the results depend on the processing

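None of the 10 genes was called in any of 670 alternative fits of their 40 results; 23 of the 40 kept their direction throughout, among them Cst12 and Kitl in AZ82 and Fshr and Inha in CW069 against AZ82. The cause of the changes below was not tested. With library size alone, the log2 difference was -0.040 for Amh, -0.046 for Sox9 and -0.016 for Wt1 in CW069, and -0.021 for Rhox5 in AZ82, against Control. With both RLE factors and DESeq2, Rhox5 for the mean of both inhibitors was 0.004.

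Over fits that left out 1 library, values in CW069 against Control ran from -0.100 to 0.107 for Amh, -0.072 to 0.005 for Gata4, -0.124 to 0.245 for Gdnf, -0.354 to 0.001 for Kitl, -0.194 to 0.052 for Rhox5, -0.108 to 0.213 for Sox9 and -0.045 to 0.107 for Wt1. In AZ82 against Control they ran from -0.009 to 0.153 for Rhox5 and -0.219 to 0.139 for Sox9. For the mean of both inhibitors they ran from -0.006 to 0.271 for Gdnf, -0.161 to 0.062 for Inha, -0.071 to 0.092 for Rhox5, -0.142 to 0.176 for Sox9 and -0.073 to 0.006 for Wt1. In CW069 against AZ82 they ran from -0.081 to 0.154 for Cst12, -0.359 to 0.015 for Gdnf and -0.013 to 0.229 for Sox9.

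Calls over all genes, 0 in AZ82 against Control, were 1 with library size alone, 6 with DESeq2, 1 with limma-voom and 0 to 4 without 1 library. In CW069 against Control, also 0, they were 1 with library size alone, 28 with DESeq2 and 0 to 7 without 1 library. In CW069 against AZ82, also 0, they were 13 with DESeq2, 8 with the compared groups only and 0 to 4 without 1 library. For the mean of both inhibitors, 1 in edgeR, they were 15 with DESeq2, 0 with the replicate block and 0 to 6 without 1 library. Same-numbered libraries did not deviate together (correlations of -0.186 to 0.052), so the numbers were not taken as pairs; with the replicate block Cst12 differed by -0.47 in AZ82 and -0.41 in CW069 (edgeR adjusted p = 0.701 and 0.749).

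Depth limits Gdnf and Amh most, with as few as 17 and 23 counts in a library. A median gene's 95% interval reached 0.28 to either side on the log2 scale between groups of 3; those of Amh, Gdnf and Kitl were wider.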
